A study of Homo sapiens with 12 samples.

Results

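The transcriptome of human neural progenitor cells (hNPCs) was compared with and without induction of miR-10b. The 6 samples of the miR-10b vector were taken, of 12 samples in all; the other 6 carried the matching vector for miR-10a. All came from H9, an established line of human embryonic stem cells (hESCs), infected with a lentivirus in which miR-10b and a GFP reporter are under control of doxycycline, at a multiplicity of infection of 50. The cells were put through 14 days of neural differentiation. They were patterned towards ventral midbrain with 0.8 µM of the GSK3 inhibitor CT99021, which activates canonical WNT signalling, and 200 ng/ml of SHH. In 3 samples (miR-10b doxycycline) the drug was present from day 11 until harvest at day 14, and the 3 control samples were the same transduced cells harvested at day 14 without doxycycline. Effects of doxycycline itself and of miR-10b cannot be told apart within this comparison. The hESCs had been expanded on γ-irradiated mouse embryonic fibroblasts, and whole cultures, not sorted cells, were sequenced. The labels number the samples but do not say that they were separate differentiations, so p-values measure the spread between these samples only.

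miR-10b and its near-identical relative miR-10a are encoded within the HOX gene clusters and, like HOX genes, are expressed in the caudal neural tube, that is hindbrain and spinal cord. A microRNA guides a silencing complex to mRNAs whose 3′UTR pairs with its seed, the bases near its 5′ end, and pairing lowers the level or the translation of the mRNA. Forebrain and midbrain progenitors normally hold little miR-10.

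The mature sequence is shown because its seed defines which mRNAs can pair with it. The RefSeq entry for hsa-miR-10a-5p lies on the minus strand of chromosome 17 in GRCh38.p14, chr17:48579904-48579926, and the capitals mark the seed, bases 2 to 8.
hsa-miR-10a-5p: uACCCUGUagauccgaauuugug
The first 8 bases of this sequence occurred 1 time in the RefSeq hairpin of MIR10B, so the seed below serves for miR-10b-5p. A site was written as it reads on the sense strand of the mRNA: ACAGGGTA is an 8mer, ACAGGGT a 7mer-m8, CAGGGTA a 7mer-A1 and CAGGGT a 6mer, and each gene was placed in the class of its best match in its longest annotated 3′UTR.

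Windows of 30 bases around sites are given for the genes with an 8mer that fell most and for TIAM1, a published miR-10 target. They are also given for 3 of the genes with a 7mer-m8 among the largest falls of the whole comparison. FGFBP3 and MESDC2, also among the named falls, hold a 7mer-m8 too, and their windows are not printed. Coordinates are GRCh37, every window lies in a 3′UTR and reads 5′ to 3′ on the strand of its gene, and the capitals mark the match.
FCF1, chr14:75202008-75202037, plus strand: cagctagagaaACAGGGTAtttacaatgcc
SDC1, chr2:20401759-20401788, minus strand: tcatgtgtgcaACAGGGTAtggactatctg
ARSK, chr5:94940003-94940032, plus strand: gtaatatatatACAGGGTAaaagcttcaaa
FAM111B, chr11:58893908-58893937, plus strand: agaaactatcaACAGGGTAaacacacaacc
ARSJ, chr4:114823042-114823071, minus strand: tgatggaagttACAGGGTAtaccatccgca
ARSJ, chr4:114823000-114823029, minus strand: tgatggaagttACAGGGTAgcatgattaaa
TIAM1, chr21:32491505-32491534, minus strand: atgccaacgaaACAGGGTAaacatgctcaa
ANKRD1, chr10:92672464-92672493, minus strand: tttgagaaagcACAGGGTtataggtgttta
ACKR3, chr2:237490229-237490258, plus strand: cttgtttttgaACAGGGTgatgggccctat
GALNT1, chr18:33290241-33290270, plus strand: aactatattaaACAGGGTttaaaggaaatt

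The libraries were of similar depth. Total counts were 11655354 to 12026785 with doxycycline and 12589750 to 13499811 in controls, so every control was the deeper library, and the detection floor of 3 counts was worth 0.222 to 0.257 CPM, that is counts scaled to a sample total of 1e6. Doxycycline replicate 2 stood apart. Compared with the other doxycycline samples its transcript counts differed with a chi-square of 3.09 and 3.99 per degree of freedom, against 1.22 to 1.89 for every other pair of replicates in the series. Among 6650 genes with at least 10 CPM it lay above both of its replicates by more than 0.25 on the log2 scale for 109 genes and below both for 119, against 13 to 26 and 19 to 39 genes for the other 5 samples. It was kept, and counts of genes are also given without it.

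Markers of neural progenitors and ventral midbrain were present in both groups. SOX2 was at 1113 to 1209 CPM with doxycycline and 1156 to 1183 CPM without, the midbrain gene EN1 at 100.2 to 111.3 and 99.5 to 105.3 CPM, the morphogen SHH at 587 to 627 and 615 to 636 CPM, and FOXA1 at 576 to 588 and 573 to 604 CPM. None of these 4 passed the test, whereas the markers CORIN, NES and SOX3 were lower with doxycycline, with values given below. The mesendoderm genes SOX17 and GATA4, with 1 transcript each, were at 0 in every sample, and SOX10, of neural crest, was at most 0.69 CPM. The deposited counts hold few reads for genes with several RefSeq transcripts, so a low count for OTX2, PAX6, DCX or POU5F1 does not show a low expression, and NANOG, T, EOMES and MIXL1, at or near 0, are not informative for the same reason. Residual hESC genes with 1 transcript could be followed: DPPA4 was at 101.8 to 112.0 and 105.0 to 110.5 CPM.

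Doxycycline raised the counts over the MIR10B gene (GRCh37, chr2:177015031-177015140, plus strand) in all samples. The gene had 31637, 29615 and 31908 counts with doxycycline, or 2662, 2541 and 2653 CPM, and 56, 39 and 44 counts without, or 4.45, 2.89 and 3.31 CPM. The log2 fold change was 9.53 (SE 0.07, adjusted p = 3.6e-46 edgeR, quasi-likelihood test, Benjamini-Hochberg, as for all adjusted p-values here). These reads count the precursor and not mature miR-10b, and transcripts of the vector and of the genomic locus cannot be told apart. MIR10A had 0 to 2 counts in each of the 6 samples, below the floor, so no fold is given. Most HOX genes had few counts: of 41 precursor and HOX genes in the files, 37 had a mean of 10 counts or fewer over the 12 samples and were not tested.

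Beyond the precursor, many genes moved a little and few moved much. Of 11451 tested genes 1756 passed an adjusted p of 0.05, which is 15.3%, with 937 higher (8.18%) and 819 lower (7.15%) after doxycycline. The median size of these changes was 0.23 on the log2 scale, 1503 of them were below 0.5, and 47 exceeded 1, of which 35 were higher and 12 lower. The 3 doxycycline samples lay entirely above or below the 3 controls for 1652 of the 1756, whereas 28.7% of all tested genes had such non-overlapping groups. With 3 samples against 3, an exact two-sided permutation test of a single gene cannot give a p below 0.1, so calls rest on the spread shared across genes. Without doxycycline replicate 2 the test called 752 genes higher and 708 lower, and 1265 of the 1756 were again called in the same direction. The balance of directions depended on the scaling: 53.4% of called genes were higher on total counts, 44.3% with TMM factors and 38.1% with DESeq2, and the median log2 fold change of all tested genes was 0.02, 0.00 and 0.00.

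The share of genes past the threshold rose with the number of counts. Below 10 CPM, 148 of 4801 genes were higher (3.1%) and 89 lower (1.9%), from 10 to 100 CPM 394 and 346 of 4151 (9.5% and 8.3%), and from 100 CPM upwards 395 and 384 of 2499 (15.8% and 15.4%). The median change among called genes went the other way, at 0.70 and -0.66 on the log2 scale in the lowest class and 0.15 and -0.17 in the highest. Ranked by level per length, the 618 genes at 100 CPM per kb or more held 63 higher (10.2%) and 129 lower genes (20.9%), and the 2271 genes under 1 CPM per kb held 71 (3.1%) and 29 (1.3%).

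**Figure D1:**
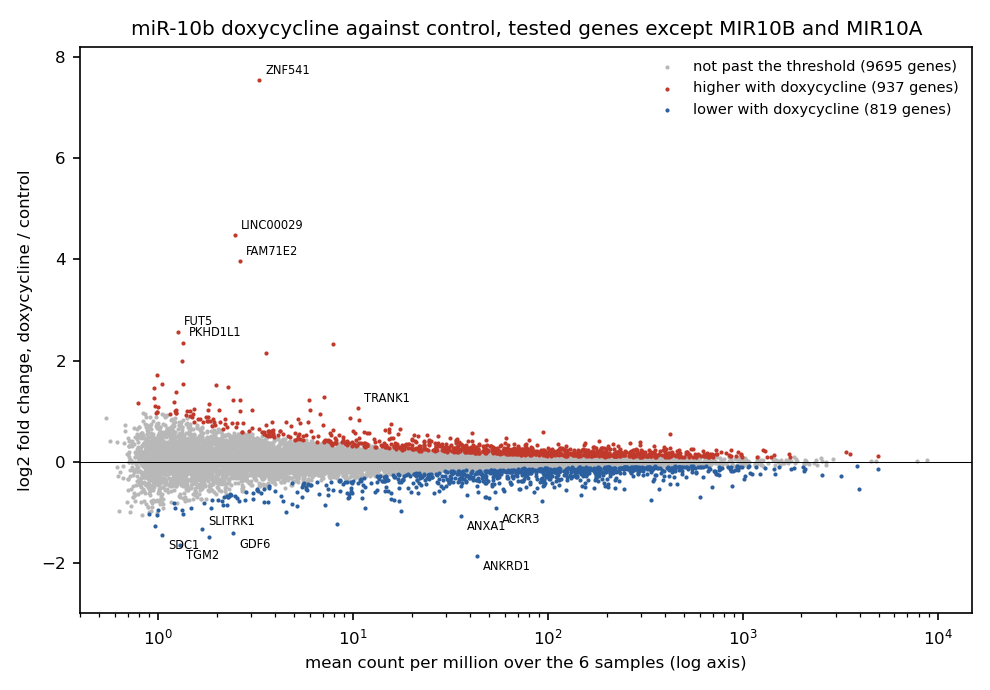
Each point is a tested gene, with its mean CPM over the 6 samples on a log axis and its log2 fold change (doxycycline over control) on the linear vertical axis; red points were higher (937 genes including MIR10B, which lies outside the range and is not drawn), blue points lower (819) and grey points not past the threshold. Large rises, such as LINC00029 at 4.48, belonged to genes of few counts, whereas ANKRD1 at -1.86 stood out among better-counted genes; the fitted value of ZNF541 rests on 1 control count and has no precise size.

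Genes named by size in each count class were taken only from called genes whose groups did not overlap. That their groups are separate therefore follows from this choice. ANKRD1 showed the largest fall among well-counted genes. It encodes a nuclear ankyrin-repeat protein that is a standard readout of the mechanosensitive co-activators YAP and TAZ. Its level was 16.7, 19.9 and 19.4 CPM with doxycycline and 65.8, 64.4 and 72.7 CPM in controls, a log2 fold change of -1.86 (SE 0.08, adjusted p = 2.8e-19). The groups were far apart, with a mean 72.4% below control. With the miR-10a vector ANKRD1 changed by -0.55 on the same scale, and the difference between the vectors passed the test (adjusted p = 1.4e-09). In controls ANKRD1 had 829, 869 and 967 counts with the miR-10b vector and 473, 601 and 418 with the miR-10a vector.

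The next largest falls at 10 to 100 CPM were those of ANXA1, LINC01330, F2RL1 and ACKR3. ANXA1, a phospholipid-binding annexin, was at 24.8, 23.1 and 21.4 CPM against 46.9, 43.0 and 55.4 CPM in controls (log2 -1.07, SE 0.09, adjusted p = 5.2e-11). ACKR3, a receptor that scavenges the chemokine CXCL12, was at 39.5, 37.2 and 36.1 CPM against 70.5, 69.7 and 72.8 CPM (log2 -0.92, SE 0.06, adjusted p = 4.1e-15). The groups of both genes were separated by a wide gap, and the 3 controls of ACKR3 differed from each other by only a few CPM. F2RL1, protease-activated receptor 2, also had a log2 fold change of -0.92 (SE 0.10), and the long non-coding RNA LINC01330 one of -0.97 (SE 0.10).

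The 5 largest falls above 100 CPM were those of GALNT1, P4HB, MESDC2, HK2 and FGFBP3. P4HB, the protein disulphide isomerase that is also a subunit of collagen prolyl 4-hydroxylase, was at 473, 454 and 444 CPM against 744, 733 and 761 CPM (log2 -0.71, SE 0.03, adjusted p = 5e-19). GALNT1, which starts mucin-type O-glycosylation, was at 257, 234 and 259 CPM against 418, 418 and 434 CPM (log2 -0.76, SE 0.04, adjusted p = 4.9e-18). The means were 38.8% and 41.0% below control. MESDC2, a chaperone for WNT co-receptors of the LRP family, fell by 0.66 (SE 0.04), and FGFBP3, a secreted binding protein of FGFs, fell by 0.54 (SE 0.03). HK2, a hexokinase, is described with the glycolytic genes.

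Under 10 CPM the falls were larger and less precise. TGM2, a transglutaminase, had 8, 7 and 7 counts against 29, 22 and 26 (log2 -1.64, SE 0.30), GDF6, a ligand of the BMP family, had 19, 15 and 13 against 46, 49 and 45 (log2 -1.42, SE 0.25), and NPPB, a natriuretic peptide precursor, had 10, 12 and 12 against 30, 39 and 38 (log2 -1.50, SE 0.25). SDC1, a cell-surface heparan sulphate proteoglycan, had 6, 7 and 7 counts against 10, 24 and 27, so that the lowest control was close to the doxycycline samples (log2 -1.44, SE 0.35, adjusted p = 0.0033). SLITRK1, a neuronal membrane protein, had 11, 12 and 11 counts against 40, 37 and 18 (log2 -1.33, SE 0.29, adjusted p = 0.001). TGM2 overlaps RPRD1B in the annotation, and the sources used here do not state whether reads were counted by strand; RPRD1B had a log2 fold change of 0.02.

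The largest rises were in rarely counted genes that controls almost lacked. ZNF541, a zinc finger gene known from germ cells (GRCh37, chr19:48023947-48076405), had 66, 79 and 90 counts with doxycycline and 0, 0 and 1 in controls. The ratio of summed counts, corrected for depth, was 260 with a 95% exact interval from 46.3 to 1.03e+04 that covers counting error only. LINC00029, a long non-coding RNA (chr20:61665569-61668380), had 52, 64 and 53 counts against 5, 2 and 1, a ratio of 23.4 (11.6 to 55.1). FAM71E2 (chr19:55866276-55874628) had 59, 74 and 42 counts against 6, 3 and 3, with a log2 fold change of 3.97 (SE 0.32, adjusted p = 1.1e-11). FUT5, a fucosyltransferase, followed with a log2 fold change of 2.57 (SE 0.36) and PKHD1L1, a large membrane protein, with 2.36 (SE 0.31). FUT5 has close paralogues whose reads could be shared with it. In each of the 5 genes every doxycycline sample exceeded every control several-fold. These 5 genes passed the count filter, a mean above 10 over the 12 samples, only through their high counts in the miR-10b doxycycline samples. Their place in the test thus follows from their rise, and their rank and adjusted p-values are no separate support for it.

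Genes next to these were examined within 200 kb. Of 15 tested neighbours of FAM71E2, 6 were higher and 0 lower, where 8.18% of all tested genes were higher and 7.15% lower. The nearest was COX6B2, a subunit isoform of cytochrome c oxidase, which lies 189 bp away on the same strand and had a log2 fold change of 1.48 (adjusted p = 0.00012). For ZNF541 3 of 8 neighbours were higher, among them the sodium-calcium exchanger gene SLC8A2 at 0.51. Around LINC00029 1 of 5 was higher, and around FUT5 and PKHD1L1 0 of 11 and 0 of 2. The only tested neighbour of the genomic MIR10B was KIAA1715, at -0.06 with an adjusted p of 0.34.

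At 10 to 100 CPM the largest rises were those of TRANK1, DNAH17, SHD, STK32A and UNC5C. UNC5C, a receptor for the axon guidance cue netrin, was at 20.1, 22.1 and 21.6 CPM against 14.2, 14.4 and 12.3 CPM (log2 0.64, SE 0.09, adjusted p = 1.3e-06). TRANK1 was at 15.7, 13.7 and 13.6 CPM against 6.43, 8.07 and 6.16 CPM (log2 1.05, SE 0.12, adjusted p = 1.8e-08). DNAH17, an axonemal dynein heavy chain, SHD, a signalling adaptor, and STK32A, a kinase, had log2 fold changes of 0.82, 0.75 and 0.64, with SEs of 0.11 to 0.12.

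Above 100 CPM, AGPAT4 rose most. This enzyme of phospholipid synthesis was at 494, 513 and 511 CPM against 342, 353 and 338 CPM (log2 0.56, SE 0.03, adjusted p = 1.5e-15). Its annotation contains the intronic transcript AGPAT4-IT1, whose reads were counted apart and changed by 0.59. AGPAT4 was also higher with the miR-10a vector, at 0.76 (SE 0.03), the larger of the 2 effects. NGFR, the p75 neurotrophin receptor, was at 200.1, 236.2 and 188.2 CPM against 157.4, 169.1 and 146.1 CPM (log2 0.40, SE 0.07). Its highest doxycycline value was that of replicate 2. KLHDC8B, a kelch-domain protein, and PDZRN3, a ubiquitin ligase, rose by 0.39 and 0.37 on the log2 scale.

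**Figure D2:**
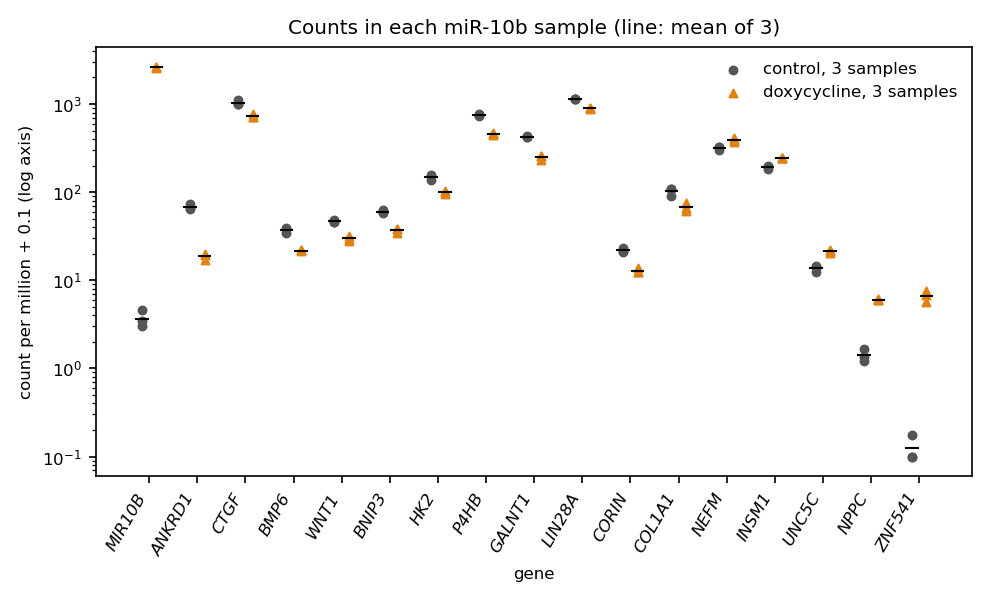
CPM plus 0.1 on a log axis are shown for the genes on the horizontal axis in each sample, with grey circles for the 3 controls, orange triangles for the 3 doxycycline samples and a black line at each mean. The groups of every gene drawn are separate, but the genes were picked from those called, several of them by a rule that requires it. ANKRD1, for example, was at 16.7 to 19.9 against 64.4 to 72.7 CPM and CTGF at 704 to 779 against 988 to 1100 CPM.

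Functional gene lists were then read against the 8.18% of all tested genes that were higher and the 7.15% that were lower. In bulk samples fewer cells of a type and less RNA per cell cannot be told apart, which holds for every list. Lists overlap in a few genes, such as CTGF. Where a list below had 0 members called in a direction, DESeq2 also called 0 in it, and at an unadjusted p under 0.05 there were at most 2 members in that direction, except 4 higher in the FGF-ERK list and 7 higher in mitochondrial ribosomal proteins. Without doxycycline replicate 2 the calls were 0 higher and 1 lower for microRNA processing genes, 0 and 1 for SOX factors, 1 and 2 for histones, 0 and 0 for p53 targets, 1 and 1 for interferon genes, 0 and 3 for Hedgehog genes, and 1 and 0 for neural crest genes. Small calls could rest on 1 library: DKK1 lost the threshold without control replicate 1 or 2 (adjusted p of 0.052 to 0.055), POU4F1 without doxycycline replicate 1 (0.062), BARHL2 without control replicate 1 or doxycycline replicate 1, GLI3 without control replicate 2 or doxycycline replicate 1, and PHGDH without control replicate 3. MYC, MT2A, GLI2, HES5, ERBB3, AGO1, TNRC6A and XPOT each lost it on leaving out any 1 of at least 3 of the 6 samples.

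Genes of BMP and TGF-β signalling that passed were lower with 1 exception. Of 18 tested members 8 fell (44.4%), 1 rose and the median log2 fold change was -0.21, against 0.02 for all genes. Among ligands, BMP6 was at 21.2, 21.8 and 21.7 CPM against 34.6, 37.6 and 39.0 CPM (log2 -0.78, SE 0.07, adjusted p = 1.2e-10), and GDF6 is given above. BMP7 was the member that rose, by 0.11. The groups of BMP6 did not overlap. Among targets, TGFBI fell by 0.77, CTGF by 0.49 and the inhibitor of differentiation ID4 by 0.25. The extracellular antagonist NOG and the pseudoreceptor BAMBI, which damp the same signals, fell by 0.23 and 0.37, so the list's falls covered ligands, targets and inhibitors. The study's protocol is based on dual SMAD inhibition, and the inhibitors of this pathway were present only before doxycycline was added at day 11.

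Targets of YAP-TEAD and of serum response factor showed 6 of 18 lower (33.3%) and 0 higher, with a median of -0.07. Beside ANKRD1 these were CTGF at 714, 704 and 779 CPM against 988, 992 and 1100 CPM (log2 -0.49, SE 0.04, adjusted p = 1.9e-12), the matricellular gene CYR61 (log2 -0.34, SE 0.05), the smooth muscle gene CNN1 (log2 -0.73, SE 0.12), NUAK2 and CRIM1. CNN1 was also lower in every doxycycline sample, at 7.21 to 10.2 CPM against 12.6 to 15.9 CPM. Regulators of the actin cytoskeleton, as a list, had 3 lower and 1 higher of 26, and 5 lower and 0 higher without doxycycline replicate 2, with TMM factors and with DESeq2.

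Genes of glycolysis and of the response to low oxygen were lower without exception among those called. Of 21 tested members 9 fell (42.9%), 0 rose, and the median was -0.20. BNIP3, a mitophagy receptor and hypoxia target, was at 38.0, 38.4 and 33.9 CPM against 58.9, 62.0 and 58.5 CPM (log2 -0.70, SE 0.06, adjusted p = 1.4e-11). HK2 was at 103.5, 96.1 and 99.4 CPM against 150.3, 154.3 and 136.7 CPM (log2 -0.56, SE 0.05, adjusted p = 9.9e-12). The groups of BNIP3 did not overlap. The glucose transporter SLC2A1 fell by 0.30, the phosphofructokinase regulator PFKFB4 by 0.48, PGK1 by 0.30 and ENO1 by 0.36. The counts of called members were 0 higher and 9 lower without doxycycline replicate 2 as well.

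Several lists of nutrient supply moved the same way. Among targets of the amino acid response factor ATF4, 6 of 20 fell (30.0%) and 0 rose. They were the amino acid transporters SLC38A2, at 409, 341 and 417 CPM against 522, 518 and 554 CPM (log2 -0.45, SE 0.05, adjusted p = 6.7e-09), SLC7A11 (log2 -0.39) and SLC7A5 (log2 -0.23), the secreted stanniocalcin STC2 (log2 -0.58), PHGDH and XPOT. Cholesterol synthesis and uptake had 5 of 19 lower (26.3%) and 0 higher, among them falls of 0.26 for the sterol carrier STARD4, 0.25 for ACAT2, 0.18 for IDI1 and 0.12 for SQLE. All 3 tested genes of the metallothionein and zinc list were lower, MT1X by 0.51, MT2A by 0.58 and the zinc exporter SLC30A1 by 0.28, of which the metallothioneins have near-identical copies and are uncertain. Few members of the housekeeping lists passed: 1 of 59 subunits of the respiratory chain was higher and 2 lower, 0 and 1 of 60 mitochondrial ribosomal proteins, 1 and 4 of 69 cytosolic ribosomal proteins, 1 and 2 of 27 aminoacyl-tRNA synthetases, and 1 and 1 of 16 mitochondrial proteases and chaperones, the last including the protease OMA1 at -0.52. The counts were 2 and 7 for cytosolic ribosomal proteins without doxycycline replicate 2, and 0 and 4 for the synthetases with TMM factors and with DESeq2. Of 15 p53 targets 1 was higher and 1 lower. Of 8 interferon response genes 0 passed by edgeR or DESeq2, and at an unadjusted p under 0.05 there were 2 higher and 2 lower.

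Cell cycle and DNA replication genes had 13 of 35 lower (37.1%) and 4 higher (11.4%), with a median of -0.08. The licensing factor CDC6 was at 138.5, 127.8 and 130.4 CPM against 173.0, 180.7 and 178.3 CPM (log2 -0.42, SE 0.04, adjusted p = 8.4e-10), and the ribonucleotide reductase subunit RRM1 fell by 0.30 (SE 0.03). CDK1 was at 26.9, 20.0 and 26.6 CPM against 29.8, 31.1 and 31.9 CPM (log2 -0.34, SE 0.08, adjusted p = 0.0045), the lowest value being that of replicate 2, without which the log2 fold change was -0.21 and did not pass (adjusted p = 0.067). TMM factors and DESeq2 each called 1 member of the list higher, in place of 4. Of the replication-dependent histones 3 of 23 were higher and 3 lower.

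Among WNT genes 6 of 22 fell (27.3%) and 1 rose (4.5%), with a median of -0.12. WNT1, the ligand of the midbrain-hindbrain boundary and dorsal midline, was at 28.1, 32.0 and 29.2 CPM against 48.4, 46.3 and 45.8 CPM (log2 -0.65, SE 0.06, adjusted p = 1.1e-09). WNT7B had a log2 fold change of -0.65 (SE 0.16), WNT8B of -0.17 (SE 0.04) and the inhibitor DKK1 of -0.76 (SE 0.21). WNT5A, a ligand that acts mostly outside the β-catenin pathway, rose from 64.4 to 67.5 CPM in controls to 72.3 to 83.6 CPM (log2 0.23, SE 0.05). The falls thus included ligands, an inhibitor and the target CCND1 (log2 -0.16). The Hedgehog list had 2 of 11 lower, GLI2 (log2 -0.34, and -0.21 without control replicate 1) and GLI3 (log2 -0.14), and the list of FGF-ERK feedback and immediate early genes 5 of 21 lower (23.8%) and 0 higher, with IER3 at -0.49, JUNB at -0.30, EGR1 at -0.25, MYC at -0.25 and JUN at -0.19. Without doxycycline replicate 2 the last count was 4.

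**Figure D3:**
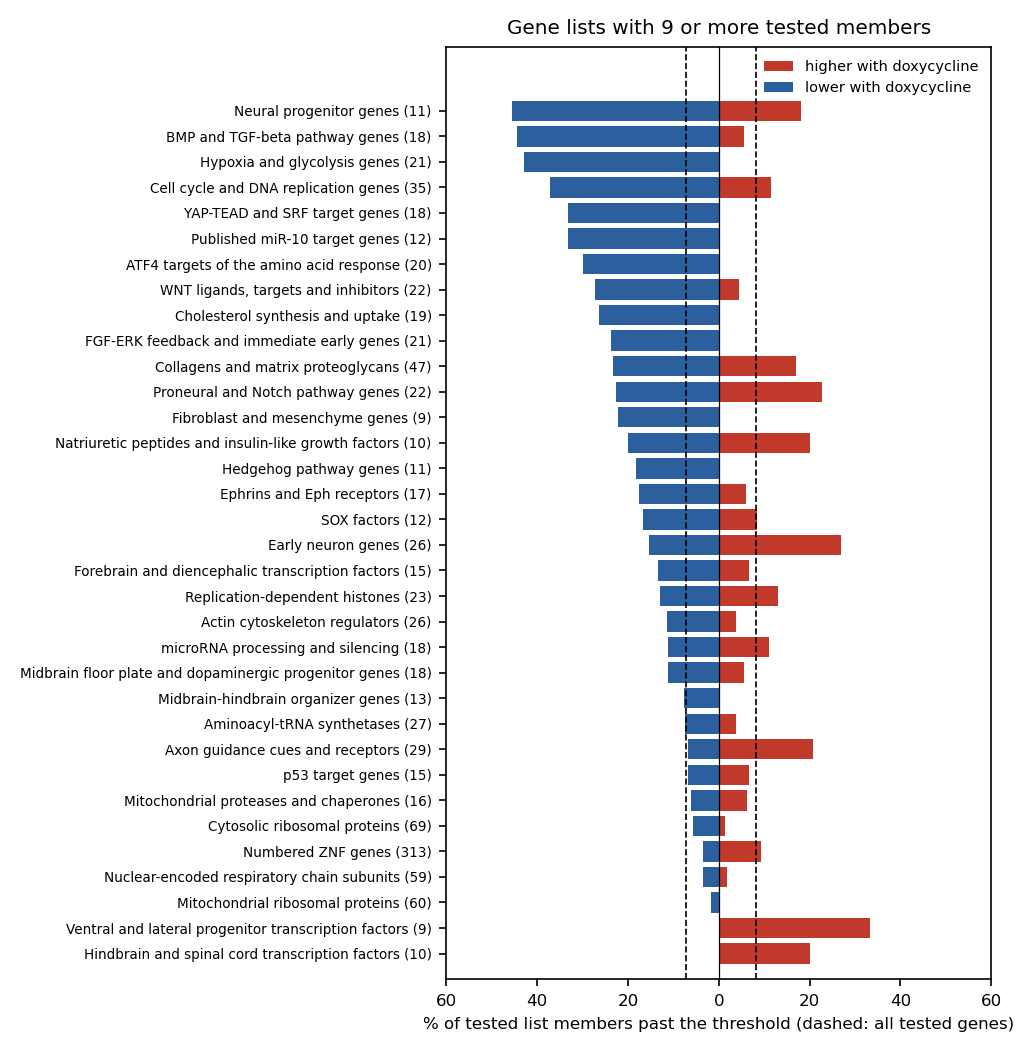
For each gene list with 9 or more tested members (number in brackets) the bars give the share of members called lower (blue, to the left) and higher (red, to the right) after doxycycline, and the dashed lines the shares among all tested genes, 7.15% and 8.18%. BMP and TGF-β genes (44.4%) and hypoxia and glycolysis genes (42.9%) extend furthest to the left beside the neural progenitor list (45.5%), and ventral and lateral progenitor transcription factors (33.3%) furthest to the right.

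Genes of regional identity changed little in number. Of 18 tested floor plate and dopaminergic progenitor genes 2 fell and 1 rose. CORIN, a surface protease that marks the floor plate, was at 12.4, 12.2 and 13.7 CPM against 20.7, 23.0 and 21.6 CPM (log2 -0.77, SE 0.09, adjusted p = 6.3e-08), with no overlap. The value is that of 1 of its 3 transcripts, and with counts summed over them the log2 fold change was -0.51, also past the threshold. CALB1, calbindin, fell by 0.55 (SE 0.10), and SPON1, the floor plate protein F-spondin, rose from 1138 to 1199 CPM in controls to 1340 to 1410 CPM (log2 0.24, SE 0.03). The floor plate transcription factors LMX1A (log2 0.27, SE 0.15, adjusted p = 0.22) and FOXA2 (log2 0.21, SE 0.12, adjusted p = 0.25) did not pass. Both have 2 transcripts and so few counted reads, and these values do not show that they were unchanged. In the organiser list WNT1 alone of 13 passed, and the midbrain-hindbrain factors EN1 and EN2 had log2 fold changes of 0.05 and -0.28 with adjusted p of 0.52 and 0.19.

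Of 9 tested transcription factors of ventral and lateral progenitors 3 were higher (33.3%), and without doxycycline replicate 2 the test called 2 higher and 1, IRX3, lower. SIM1 was at 202, 224 and 196 CPM against 171, 175 and 172 CPM (log2 0.27, SE 0.04, adjusted p = 1.5e-05), NKX6-2 changed by 0.23 (SE 0.04) and NKX6-1 by 0.21 (SE 0.06). In all 3 genes the highest value was that of doxycycline replicate 2. Of 10 hindbrain and spinal cord factors 2 were higher, NKX6-2 and LHX5 (log2 0.20, SE 0.05), and of 15 forebrain and diencephalic factors BARHL1 and BARHL2 fell by 0.68 and 0.29 and SIM1 rose. Without doxycycline replicate 2 the log2 fold change of SIM1 was 0.21 (adjusted p = 6.5e-05) and that of NKX6-2 0.17 (adjusted p = 0.0019), whereas NKX6-1 no longer passed, at 0.13 (adjusted p = 0.094).

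Neural progenitor genes had 5 of 11 lower and 2 higher, with small changes. The intermediate filament gene NES was at 4680, 4835 and 4574 CPM against 5188, 5153 and 5139 CPM (log2 -0.14, SE 0.03, adjusted p = 0.00034), SOX3 fell by 0.40 (SE 0.05), and SOX2 and VIM did not pass. Proneural and Notch genes split evenly, 5 higher and 5 lower of 22. INSM1, a zinc finger factor of newborn neurons, was at 243, 241 and 242 CPM against 198, 194 and 180.5 CPM (log2 0.34, SE 0.04, adjusted p = 9.1e-09), and NEUROD1 and the Notch target HEYL rose by 0.24 and 0.26. The Notch ligand DLL4 fell by 0.37, the targets HES5 and HES1 by 0.16 and 0.12, while the receptors NOTCH1 and NOTCH2 rose by 0.15 and 0.14. SOX factors had 1 higher and 2 lower of 12.

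Among early neuron genes 7 of 26 were higher (26.9%) and 4 lower (15.4%). NEFM, a neurofilament subunit, was at 386, 407 and 371 CPM against 322, 323 and 298 CPM (log2 0.30, SE 0.04, adjusted p = 1.5e-07), NEFL rose by 0.16 and SLC17A6, the vesicular glutamate transporter of glutamatergic neurons, by 0.20. POU4F1, a sensory neuron factor, fell by 0.59 (SE 0.15) and SLITRK1 is given above. DESeq2 called 4 of the list higher and 2 lower, and 5 were higher without doxycycline replicate 2. Axon guidance genes had 6 of 29 higher (20.7%) and 2 lower, with a median of 0.11. Netrin receptors made up 3 of the rises, UNC5C, UNC5D (log2 0.41, SE 0.10) and DCC, which was at 779, 804 and 768 CPM against 663, 693 and 644 CPM (log2 0.23, SE 0.04, adjusted p = 5.2e-06). The other 3 were semaphorin receptors of the plexin A family, PLXNA3 at 0.32, PLXNA2 at 0.19 and PLXNA1 at 0.14. PLXND1, a plexin of another family, fell by 0.38 and the repellent SLIT1 by 0.15. Among ephrins and Eph receptors 1 of 17 was higher and 3 lower, the largest change being -0.35 for EPHA2.

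Extracellular matrix genes went both ways, with 8 of 47 collagens and matrix proteoglycans higher and 11 lower. COL1A1, the main fibrillar collagen of connective tissue, was at 60.9, 65.9 and 75.4 CPM against 107.4, 89.8 and 109.1 CPM (log2 -0.60, SE 0.06, adjusted p = 1e-08), and COL5A2, COL5A3 and COL3A1 fell by 0.23, 0.34 and 0.21. COL27A1 rose by 0.30 (SE 0.05) and COL6A1 by 0.15 (SE 0.04). DESeq2 called 4 higher and 8 lower. Fibroblast and mesenchyme markers were measured as a list because the cells had grown on fibroblasts: 2 of 9 tested were lower, COL1A1 and COL3A1, and the summed level of the list was 274 to 292 CPM with doxycycline and 328 to 354 CPM without. COL1A1 and COL3A1, the called members, made up most of both sums. LUM, at 20.1 to 21.8 and 22.7 to 24.5 CPM, did not pass the test. The part of such cells in these results was not tested. Of neural crest markers NGFR and ERBB3 rose, 2 of 5 tested. The list summed to 293 to 334 CPM with doxycycline and 248 to 275 CPM without, and NGFR made up most of both sums. The other 3 tested members were lower in mean, and the median log2 fold change of the list was -0.01.

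The natriuretic peptides were opposite in direction. NPPC, precursor of C-type natriuretic peptide, was at 5.81, 5.83 and 5.99 CPM against 1.11, 1.26 and 1.58 CPM (log2 2.15, SE 0.19, adjusted p = 1.1e-10), and NPPB was lower, as given above. NPPC was also higher with the miR-10a vector, at 2.62 (SE 0.16). Zinc finger genes of the numbered ZNF series were 29 higher (9.3%) and 11 lower (3.5%) of 313, with a median of 0.06, beside 8.18%, 7.15% and 0.02 for all tested genes. The counts were 21 and 12 with TMM factors and 26 and 6 without doxycycline replicate 2.

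On total counts, genes with an 8mer or 7mer match in the 3′UTR were more often lower than higher. Those with a 6mer and those without any match were more often higher. The balance of directions depended on the scaling, as given above, and these classes were counted on total counts only. A 3′UTR was annotated for 9854 tested genes (86.1%). Of 253 genes with an 8mer, 50 fell (19.8%) and 13 rose (5.1%), with a median log2 fold change of -0.04. With a 7mer-m8 as best match 171 of 1349 fell (12.7%) and 98 rose (7.3%), and without any match 350 of 5850 fell (6.0%) and 481 rose (8.2%), with a median of 0.02. Genes with a 7mer-A1 had 57 lower (11.8%) and 46 higher (9.5%) of 482. Those with a 6mer had 158 lower (8.2%) and 211 higher (11.0%) of 1920, with a median of 0.03. The mean was below control for 61.3% of 8mer genes and for 43.7% of genes without a match. Among genes with an annotated 3′UTR, 28.1% of those that fell held an 8mer or 7mer-m8, 13.1% of those that rose, and 16.3% of all that were tested. The 3′UTRs of 8mer genes were longer, with a median of 3866 against 962 bases, and length was not separated from the match here.

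**Figure D4:**
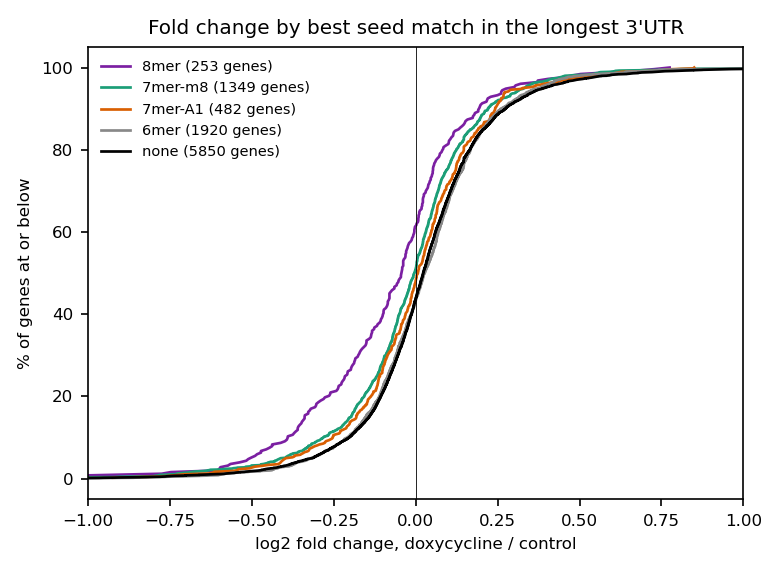
Cumulative curves of the log2 fold change (doxycycline over control) are drawn for genes grouped by their best seed match, and the vertical axis is the percentage of genes at or below each value. The 8mer curve (253 genes) lies to the left, passing zero change at 61.3% of genes, and the curve of genes without a match (5850) passes it at 43.7%.

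The 8mer genes that fell most were SDC1, FCF1, FAM111B, ARSJ and ARSK, whose sites are printed above. FCF1, a factor for processing of the small ribosomal subunit RNA, was at 67.2, 69.4 and 68.9 CPM against 114.5, 120.4 and 116.7 CPM (log2 -0.78, SE 0.04, adjusted p = 4.8e-16). The sulphatases ARSK, at 15.1, 14.3 and 17.9 CPM against 24.1, 23.9 and 23.6 CPM, and ARSJ, at 9.93, 9.10 and 11.9 CPM against 14.9, 16.1 and 15.8 CPM, both had a log2 fold change of -0.60 (SE 0.08 and 0.10). ARSJ was one of 9 tested genes with more than 1 8mer, and its sites begin 370 and 412 bases after the stop codon. FAM111B, a serine protease, was at 2.10, 2.06 and 2.58 CPM against 3.65, 3.41 and 3.23 CPM (log2 -0.60, SE 0.19), and its adjusted p of 0.029 lay between 0.066 and 0.1 when control replicate 1 or 2 or doxycycline replicate 1 or 2 was left out.

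Published targets of miR-10 were lower where they passed, 4 of 12 tested. TIAM1, an activator of the GTPase RAC, was at 78.0, 78.0 and 80.2 CPM against 99.7, 96.2 and 90.4 CPM (log2 -0.28, SE 0.05, adjusted p = 2.9e-05), and the splicing factor TRA2B fell by 0.23, beside SDC1. In the list of microRNA processing and silencing genes LIN28A and LIN28B were lower and AGO1 and TNRC6A higher, 2 and 2 of 18. LIN28A, which blocks let-7 maturation, was at 905.5, 906.9 and 883.9 CPM against 1149, 1132 and 1124 CPM (log2 -0.34, SE 0.03, adjusted p = 4.8e-11), and the other 3 changed by 0.09 in size. LIN28B no longer passed without control replicate 2 or 3 or doxycycline replicate 1 or 2 (adjusted p of 0.073 to 0.14). LIN28A was also the member of the pluripotency list that fell, 1 of 4 tested.

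The comparison was set beside that of the miR-10a vector, which shares no samples with it. With miR-10a 139 genes passed the threshold, and the difference between the effects passed it for 224 of 11451 genes (1.96%), of which 66 were more positive and 158 more negative with miR-10b. Of the 937 genes that were higher with miR-10b, 38 were also called higher with miR-10a and 65 differed between vectors. Of the 819 lower genes 76 were also called lower and 152 differed. Seen from the other side, of the 139 genes called with miR-10a among 11451 tested, 38 were also higher and 76 also lower with miR-10b. The 937 and 819 genes were chosen by their miR-10b change, which is part of the difference. The 65 and 152 are therefore not comparable with the 1.96% of all tested genes. With its own vector MIR10A was at 711 to 731 CPM with doxycycline and 0.64 to 1.37 CPM without, a log2 fold change of 9.49 (SE 0.08), beside 9.53 for MIR10B in the comparison described here. BMP6, at -0.78 with miR-10b and -0.19 (SE 0.08) with miR-10a, was among those whose effects differed (adjusted p = 0.00065). COL1A1 was at -0.60 and 0.05 (adjusted p of the difference 9.7e-05). The uninduced groups of these genes already differed. COL1A1 had 1352, 1212 and 1452 counts in miR-10b controls and 579, 656 and 549 in miR-10a controls. BMP6 had 435, 507 and 519 against 287, 313 and 273. For WNT1 the controls were closer, at 609, 625 and 610 against 554, 632 and 499. The part of starting levels in the difference between vectors was not tested. WNT1 fell with both, by 0.65 and 0.45, and CORIN had -0.77 and -0.28, and for neither did the difference pass (adjusted p = 0.32 and 0.13).

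**Figure D5:**
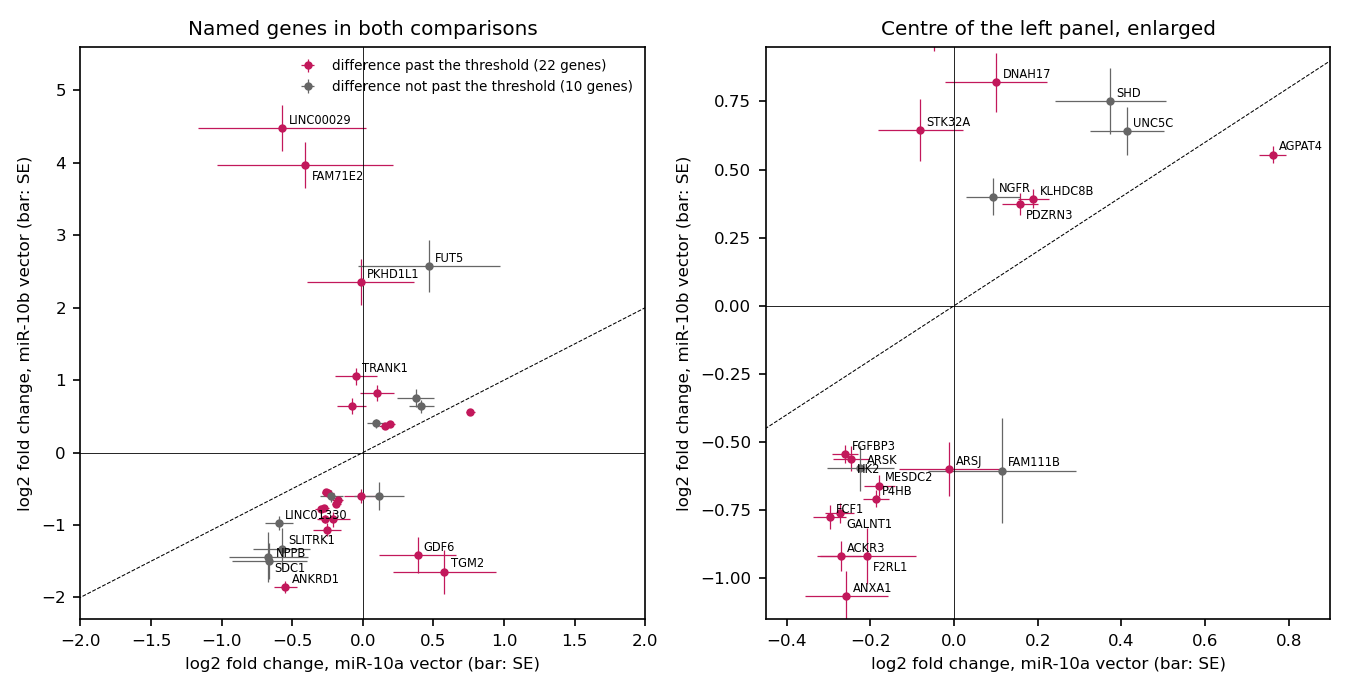
The log2 fold change with the miR-10b vector (vertical) is plotted against that with the miR-10a vector (horizontal), with bars of 1 SE, for the named genes of the 3 count classes and the 8mer genes without ZNF541; the dashed line marks equal effects and the right panel enlarges the centre of the left. Red points passed the test of the difference; AGPAT4 lies to the right of the line at 0.76 and 0.56, and ANKRD1 far below it at -0.55 and -1.86.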

How the data were processed

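The deposited files hold raw counts of reads per RefSeq transcript, 1 file per sample. Per the submitters' processing notes, the authors used STAR, Subread and featureCounts with hg19; versions are not given in the sources used here. The labels name a miRNeasy extraction and Illumina kits, and the study's methods an RNeasy extraction and NuGEN poly-A libraries. Repeated entries (3698 per file) were dropped, and each gene was represented by its transcript with the highest mean count. Counts were scaled to the sample's total, and genes averaging more than 10 counts in the 12 samples were tested with edgeR 4.0.16 (glmQLFit, glmQLFTest, 4 group means in 1 fit) in R 4.3.3, with a Benjamini-Hochberg threshold of 0.05 over all 11451 genes. The contrast of the vectors was an interaction term. Counts were simulated for 11451 genes, with 110 genes changed by 0.4 and 90 by 1 on the log2 scale. Of these 49.1% and 85.6% were recovered, with 3.7% false among all called. The simulation changed far fewer genes than the 15.3% called here and held no sample that stood apart, so these shares need not hold for the data. Alternatives were DESeq2 1.42.0, TMM factors, other filters, counts summed over transcripts, counts thinned to equal totals, the 6 miR-10b samples alone, a replicate block and leaving out each sample. Sites were searched in GENCODE 44 3′UTRs on GRCh37 (Python 3.11.15, pandas 2.3.3, pysam 0.24.0).

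Genes named are the precursors, the 5 largest rises and 5 largest falls in each of 3 count classes (called, groups apart), the 5 largest falls with an 8mer, and from each functional list up to 4 called members with the largest change and the first 3 members. Further called members that complete a list's count were named after their values were seen. Some genes that these rules name are not reported here. The comparison and the lists were chosen with earlier results of these data known.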

Additional observations from a re-analysis of the deposited data

Results flagged for a closer look

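The effect of doxycycline differed between the miR-10b and the miR-10a vector for 23 of the 34 genes named for the size of their change, by the interaction term at an adjusted p under 0.05 (1.96% of all tested genes passed it). The 34 were chosen for large changes with miR-10b, so this share is not comparable with that of all genes. MIR10B differed by 10.14 on the log2 scale.

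More positive with miR-10b were LINC00029, by 5.05, FAM71E2, by 4.38, PKHD1L1, by 2.37, TRANK1, by 1.10, STK32A, by 0.72, DNAH17, by 0.72, PDZRN3, by 0.21, and KLHDC8B, by 0.20. LINC00029, FAM71E2 and PKHD1L1 passed the count filter only through the miR-10b doxycycline samples. AGPAT4, higher with both vectors, had a difference of -0.21 and so rose more with miR-10a.

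More negative with miR-10b were TGM2 (-2.22), the BMP-family ligand GDF6 (-1.81), ANKRD1 (-1.31), ANXA1 (-0.81), F2RL1 (-0.71), ACKR3 (-0.65), ARSJ (-0.59), P4HB (-0.52), GALNT1 (-0.49), MESDC2 (-0.48), FCF1 (-0.48), HK2 (-0.32) and FGFBP3 (-0.28). TGM2 and GDF6 had positive values of 0.58 and 0.39 with miR-10a that did not pass the threshold (adjusted p = 0.62 and 0.65). Both genes also differed before induction. TGM2 had 29, 22 and 26 counts in miR-10b controls and 5, 10 and 9 in miR-10a controls. GDF6 had 46, 49 and 45 against 17, 24 and 21. FGFBP3 had fewer counts in miR-10b controls, at 5551, 5874 and 6040 against 8430, 9395 and 8361. The part of such starting levels in the interaction was not tested. For ZNF541 the difference did not pass (adjusted p = 0.25), and the miR-10a samples held 0 to 2 of its counts.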

How the results depend on the processing

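DESeq2 called 498 genes higher and 808 lower, against 937 and 819, and 1224 of the 1756 genes were called in the same direction by both. TMM factors gave 766 and 963. Without 1 miR-10b sample at a time the counts ranged from 601 to 959 higher and from 615 to 837 lower; the lowest pair, 601 and 615, was without control replicate 3, and the cause was not tested. Under the other settings there were 729 to 1019 miR-10b genes higher with doxycycline and 645 to 819 miR-10b genes lower with doxycycline. The fold change of MIR10B stayed between 9.40 and 9.72. A replicate block gave 869 and 769 genes, but samples with the same number did not deviate together (r of -0.02, -0.02 and -0.03 across genes), so the numbers do not show a pairing. Of 146 called genes followed through the settings that tested them 0 reversed and 42 lost the threshold in at least 1, among the 34 genes named by size only FAM111B. Calls were fewer at low counts: under 10 CPM 3.1% of genes passed as higher and 1.9% as lower, against 15.8% and 15.4% from 100 CPM upwards.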

Other observations

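Genes outside the rule for named genes are given here as values and were chosen after their values were seen. PRTG, protogenin, a cell-surface protein of the early neural tube, was the fall with the most counts behind it among these: it was at 3208, 3256 and 3196 CPM with doxycycline and 4391, 4721 and 4905 CPM without (log2 -0.54, SE 0.04, adjusted p = 5.7e-13 by edgeR), and its change with the miR-10a vector was -0.56. It has an 8mer in its 3′UTR (GRCh37, chr15:55910110-55910139, minus strand).
PRTG: taggcagattgACAGGGTAtagcgctttgt
ELOVL2, an elongase of polyunsaturated fatty acids with an 8mer, had a log2 fold change of -0.51 (SE 0.04), and SCD, the stearoyl-CoA desaturase, was at 2909, 2742 and 2964 CPM against 3517, 3516 and 3411 CPM (log2 -0.28, SE 0.03). TWSG1, an extracellular BMP modulator, had -0.50 (SE 0.04), SLC7A1, a transporter of cationic amino acids, -0.54 (SE 0.03), and the small GTPase gene ARF6 -0.51 (SE 0.04). GCLM, a subunit of the enzyme that starts glutathione synthesis, had -0.73 (SE 0.09).

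On the other side, SLFN13 was at 10.4, 15.9 and 13.4 CPM against 3.18, 2.30 and 2.48 CPM (log2 2.32, SE 0.16, adjusted p = 2.1e-13), with -0.16 for the miR-10a vector, and FCGBP had a log2 fold change of 1.28 (SE 0.13) against -0.06. COX6B2, next to FAM71E2, had 2.95, 4.20 and 2.91 CPM against 1.19, 1.11 and 1.28 CPM, and -0.28 (adjusted p = 0.84) with miR-10a. MAP2, a microtubule-associated protein of neurons, was at 428, 458 and 418 CPM against 343, 366 and 360.5 CPM (log2 0.28, SE 0.04, adjusted p = 2.2e-07).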
